A study of Homo sapiens with 6 samples.

Results

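The transcription factors of the epithelial-mesenchymal transition and the N-cadherin gene were examined as 10 genes, called members here: the SNAIL-family repressors SNAI1 and SNAI2, the TWIST factors TWIST1 and TWIST2, the ZEB repressors ZEB1 and ZEB2, the epithelial factors GRHL2 and OVOL1, and the mesenchymal cadherins CDH2 (N-cadherin) and CDH11. They were chosen by name, as 10 of 27980 gene symbols in the count tables, and all 10 were found. RNA came from RKO, a poorly differentiated human colon carcinoma cell line, in 6 sequenced libraries. In 3 libraries (shTRIP6) a lentivirus had brought in a short hairpin RNA directed at TRIP6, which encodes a LIM-domain adaptor of focal adhesions and nucleus, and the labels give their genotype as a TRIP6 knockdown. In the other 3 (shControl) the lentiviral hairpin was scrambled, and the labels give their genotype as WT. Both groups were selected with puromycin at 5 µg/ml, starting 36 h after infection and lasting 2 to 3 weeks. The labels name no hairpin sequence and no number of hairpins or clones.

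The libraries held 29605764 to 32089298 counts, and each shTRIP6 library was deeper than each shControl library. One count was worth 0.0314 to 0.0336 CPM (counts scaled to a common library size), and 3 counts, taken as the limit that a count of 0 allows, 0.0941 to 0.101 CPM. Floors and counting intervals cover counting error only. TRIP6 stood at 19.5 ± 0.203 CPM (SD, n = 3) in shTRIP6 and 80.3 ± 6.27 CPM in shControl, and no library of either group crossed into the other. The labels call the replicates biological without naming separate cultures, so p-values measure the spread between these libraries. In bulk RNA, fewer cells expressing a gene and less of its RNA per cell cannot be told apart.

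In the epithelial-mesenchymal transition, epithelial cells lose E-cadherin junctions and gain a motile, mesenchymal character. SNAIL and ZEB proteins are zinc finger repressors that bind E-boxes of the form CAGGTG in epithelial genes such as CDH1 (E-cadherin) and recruit corepressors, while TWIST proteins are basic helix-loop-helix factors that bind DNA as dimers. GRHL2 and OVOL1 are transcription factors of epithelia, and OVOL proteins and GRHL2 are known to oppose ZEB1. MicroRNAs of the 200 family repress ZEB1 and ZEB2 through their 3′ UTRs, and ZEB proteins repress the microRNA-200 genes in return. Replacement of E-cadherin by N-cadherin is a common sign of the transition in carcinoma.

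The RefSeq promoter table (GRCh38.p14) covered 4 of the 10 members with 11 windows, each from 250 bases before to 50 bases after a transcription start. The windows of CDH2 and TWIST2 are shown because these genes fell most among the 4, and that of ZEB1 because it did not pass the test. Each is the window nearest to the GENCODE start of its gene, read 5′ to 3′ on the gene's strand, and capitals mark CAGGTG, the E-box of SNAIL and ZEB proteins, searched on both strands (as CAGGTG and CACCTG). They lie at chr18:28177081-28177380 (minus strand), chr2:238847835-238848134 (plus strand) and chr10:31318167-31318466 (plus strand).
CDH2: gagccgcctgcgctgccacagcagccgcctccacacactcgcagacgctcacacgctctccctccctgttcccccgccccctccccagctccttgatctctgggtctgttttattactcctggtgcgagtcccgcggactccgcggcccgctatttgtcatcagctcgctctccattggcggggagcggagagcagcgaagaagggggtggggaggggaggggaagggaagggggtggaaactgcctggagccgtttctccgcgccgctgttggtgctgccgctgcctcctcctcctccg
TWIST2: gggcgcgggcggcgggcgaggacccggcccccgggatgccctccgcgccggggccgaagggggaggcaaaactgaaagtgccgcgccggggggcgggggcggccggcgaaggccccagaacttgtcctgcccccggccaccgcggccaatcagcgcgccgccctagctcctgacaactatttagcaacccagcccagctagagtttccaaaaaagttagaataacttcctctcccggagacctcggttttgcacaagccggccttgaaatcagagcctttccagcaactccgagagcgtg
ZEB1: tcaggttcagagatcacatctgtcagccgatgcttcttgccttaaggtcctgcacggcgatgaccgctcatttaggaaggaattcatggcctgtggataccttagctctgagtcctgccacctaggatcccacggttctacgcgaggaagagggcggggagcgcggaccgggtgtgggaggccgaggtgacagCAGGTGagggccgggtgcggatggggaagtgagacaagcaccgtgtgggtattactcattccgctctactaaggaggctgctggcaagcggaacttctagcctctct
The printed ZEB1 window held 1 such E-box, with its first base at position -57 from the start, and 2 of the 7 ZEB1 windows in the table held at least 1. No match was found in the CDH2 and TWIST2 windows shown or in the window of ZEB2. Of all 35116 windows in the table, 20.6% held the motif, so the count among the members is a description of these letters only.

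The microRNA-200 family is shown because both ZEB genes carry many matches to its seeds. The mature sequences are from RefSeq (GRCh38.p14) and fall under 2 seeds (bases 2 to 8, in capitals), which differ at a single base.
hsa-miR-200a-3p: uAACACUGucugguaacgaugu
hsa-miR-141-3p: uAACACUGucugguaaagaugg
hsa-miR-200b-3p: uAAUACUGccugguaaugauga
hsa-miR-200c-3p: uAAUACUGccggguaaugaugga
hsa-miR-429: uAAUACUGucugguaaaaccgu
In the 3′ UTR of the principal ZEB1 transcript of GENCODE release 29 (1938 bases), CAGTGTT, which pairs with the seed of miR-200a and miR-141, occurred 3 times, and CAGTATT, which pairs with that of miR-200b, miR-200c and miR-429, 5 times. In the ZEB2 3′ UTR (5370 bases) they occurred 4 and 5 times. The first match of each kind is given with its flanks, with the paired bases in capitals.
ZEB1, miR-200a type: caaaatcatcagaatCAGTGTTt
ZEB1, miR-200b type: attgttttatcttatCAGTATTa
ZEB2, miR-200a type: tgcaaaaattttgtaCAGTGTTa
ZEB2, miR-200b type: cgcactaccatacatCAGTATTt
Among the 5060 principal 3′ UTRs at least as long as that of ZEB1, each cut to the same length, 21.4% held CAGTATT and 2, ZEB1 included, held it 5 times or more. At the length of the ZEB2 3′ UTR, 1 of 882, ZEB2 itself, did so, and 48.8% held at least 1. CAGTGTT stood out less. At the ZEB1 length 24.6% held it and 21 of 5060 held it 3 times or more. At the ZEB2 length 51.4% held it and 10 of 882 held it 4 times or more. The rows of MIR200A, MIR200B, MIR429, MIR200C, MIR141, MIR200CHG, MIR205 and MIR205HG, the loci and host genes of these microRNAs and of microRNA-205, had 0 counts in all 6 libraries. Mature microRNAs, which are shorter than the fragments of most RNA-seq libraries, were not measured here.

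Of the 10 members, 7 had enough counts to be tested and 3 had no count in any library. In shTRIP6, 6 of the 7 fell and 0 rose (edgeR's quasi-likelihood test, Benjamini-Hochberg adjusted p under 0.05 over 15473 genes). Over all tested genes 31.2% were lower, 29.0% were higher and 60.1% passed in either direction. The median log2 fold change (shTRIP6 over shControl) was -0.52 over the 7 tested members and -0.0040 over all tested genes. The number of members called higher at an unadjusted p under 0.05 was also 0, in edgeR, DESeq2 and limma-voom alike, and each of these tools called 6 lower. In 6 of the 7 the shTRIP6 libraries all lay below the shControl libraries, as in 33.5% of tested genes (31.8% lay entirely above and 65.3% did not overlap in either direction).

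**Figure D1:**
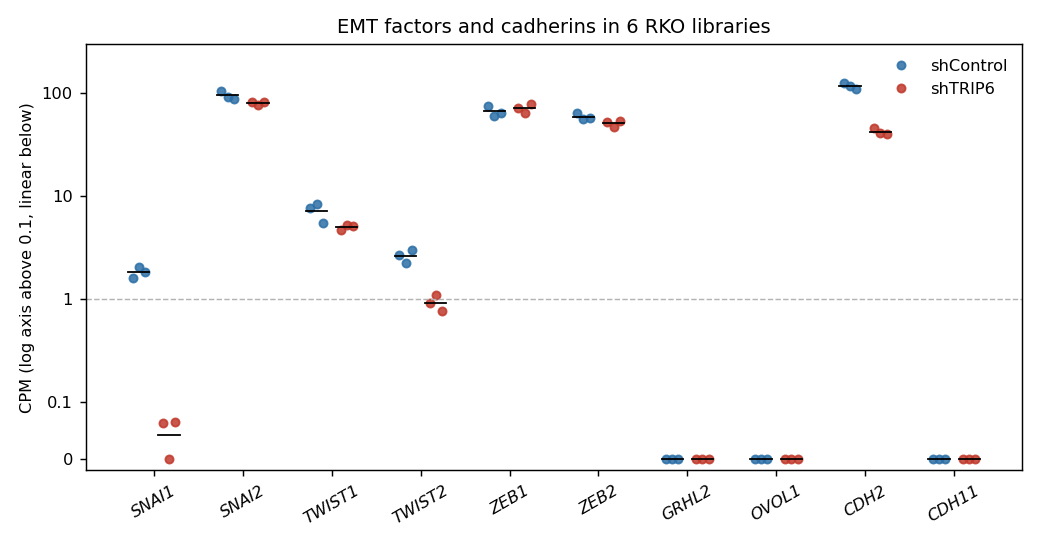
Level of each member in CPM (vertical axis, logarithmic above 0.1 and linear below) in each of 3 shControl libraries (blue) and 3 shTRIP6 libraries (red), with a black line at each mean and a dashed line at 1 CPM. SNAI1 falls from 1.61 to 2.05 CPM in shControl to at most 0.0643 CPM in shTRIP6, CDH2 and TWIST2 are lower by a smaller factor, ZEB1 overlaps, and GRHL2, OVOL1 and CDH11 lie at 0.

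SNAI1, which encodes SNAIL, lies on chromosome 20 from 49982999 to 49988886 (GRCh38, plus strand, protein-coding). It had 2, 0 and 2 counts in the shTRIP6 libraries and 48, 64 and 57 counts in the shControl libraries. It was thus a low gene in the controls, at 1.61, 2.05 and 1.84 CPM, and at or under the floor of 3 counts in every shTRIP6 library. Summed over libraries, 4 counts against 169 put shTRIP6 at 2.29% of shControl per count sequenced, with a 95% exact binomial interval of 0.616% to 5.96%. The fitted log2 fold change was -5.31 ± 0.58 (SE, edgeR adjusted p = 2.61e-07), a value that depends on the fit at such low counts. Only 2.4% of tested genes had a lower one.

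SNAI2, which encodes SLUG, lies on chromosome 8 from 48917604 to 48921740 (minus strand, protein-coding). It stood at 81.9, 76.9 and 81.5 CPM in shTRIP6 and at 105.7, 91.6 and 88.6 CPM in shControl. The groups did not overlap, with all 3 shTRIP6 libraries below the lowest shControl library. The mean was 80.1 ± 2.75 CPM against 95.3 ± 9.14 CPM (SD, n = 3), and SNAI2 fell by 0.25 ± 0.06 on the log2 scale (edgeR adjusted p = 0.00239), to 84.1% of the control level. SNAI1 made up 1.503% to 2.19% of the SNAI1 and SNAI2 counts in shControl libraries and 0% to 0.0788% in shTRIP6 libraries. SNAI3, another gene of this family, had 3 to 8 counts in shTRIP6 and 13 to 21 in shControl, and it fell (log2 fold change -1.72, edgeR adjusted p = 0.0150). SNAI3 was named after its values were seen.

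TWIST1 lies on chromosome 7 from 19020991 to 19117672 (minus strand) and TWIST2 on chromosome 2 from 238848032 to 238910543 (plus strand). TWIST1 stood at 4.64, 5.24 and 5.08 CPM in shTRIP6 and at 7.73, 8.28 and 5.50 CPM in shControl. The third shControl library lay just above the shTRIP6 libraries. TWIST1 fell to 69.6% of its control mean (log2 fold change -0.52 ± 0.17, edgeR adjusted p = 0.0125), and this call was lost without shTRIP6 replicate 1 (adjusted p = 0.0568) or shControl replicate 2 (adjusted p = 0.0764), with adjusted p-values from 0.00155 to 0.0764 over 14 alternatives. TWIST2 stood at 0.910, 1.09 and 0.771 CPM in shTRIP6 and at 2.69, 2.25 and 2.97 CPM in shControl. Every shControl library was above 2 CPM and none of the shTRIP6 libraries was above 1.1 CPM. TWIST2 fell to 35.0% of the control level, from 2.64 ± 0.367 to 0.923 ± 0.158 CPM (log2 fold change -1.51 ± 0.29, edgeR adjusted p = 0.000185).

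ZEB1 lies on chromosome 10 from 31318495 to 31529814 (plus strand) and ZEB2 on chromosome 2 from 144364364 to 144524583 (minus strand). ZEB1 stood at 72.2, 64.3 and 78.5 CPM in shTRIP6 and at 75.5, 59.8 and 64.0 CPM in shControl. The libraries of the groups overlapped, and the difference did not pass the test (log2 fold change 0.11 ± 0.08, edgeR adjusted p = 0.258). Without shControl replicate 1, the highest control, ZEB1 was called higher (by 0.21 on the log2 scale, edgeR adjusted p = 0.00514), and over 14 alternatives the adjusted p-values ran from 0.00514 to 0.717. That library stood apart from the other controls, at 10.7 and 11.7 times the sampling noise against them (chi-square over its degrees of freedom) where they stood at 4.81 from each other. ZEB2 stood at 52.7, 46.6 and 54.0 CPM in shTRIP6 and at 64.4, 56.3 and 56.8 CPM in shControl. These groups did not overlap, and ZEB2 fell to 86.4% of its control mean (log2 fold change -0.21 ± 0.07, edgeR adjusted p = 0.0158). The ZEB2 call was lost without shTRIP6 replicate 2, the lowest library (adjusted p = 0.134), and with upper-quartile scaling (adjusted p = 0.0566), with adjusted p-values from 0.0106 to 0.134 over 14 alternatives. Exons of both genes overlap an antisense gene, ZEB1-AS1 by 366 bases and ZEB2-AS1 by 1299 bases, and the sources used here do not give the strand setting. Counts of ZEB1-AS1 came to 5.73% to 9.09% of those of ZEB1 and counts of ZEB2-AS1 to at most 0.595% of those of ZEB2.

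**Figure D2:**
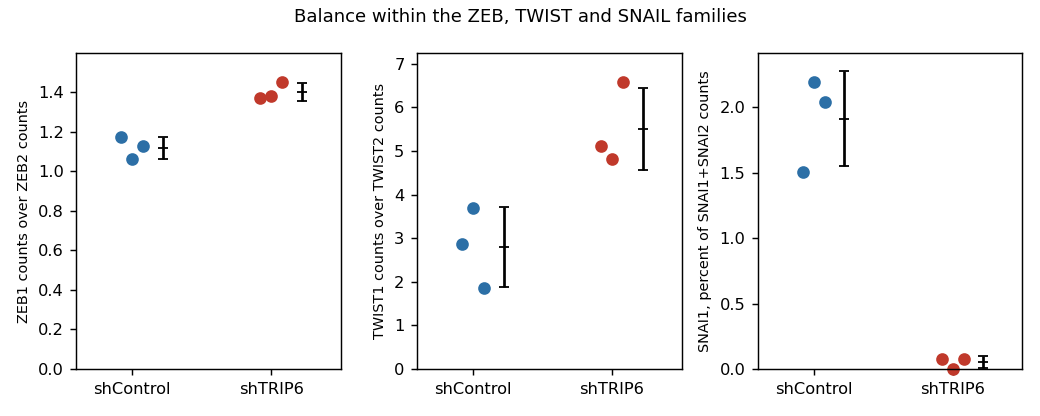
Ratio of ZEB1 to ZEB2 counts (left), ratio of TWIST1 to TWIST2 counts (middle) and SNAI1 as a percentage of SNAI1 plus SNAI2 counts (right) in each library, 3 shControl (blue) and 3 shTRIP6 (red), with the mean and SD in black. The groups do not overlap in any panel, with ZEB1 over ZEB2 at 1.40 ± 0.0454 in shTRIP6 and 1.12 ± 0.0557 in shControl.

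Ratios within a family do not depend on the scaling of libraries. ZEB1 counts were 1.37, 1.38 and 1.45 times those of ZEB2 in shTRIP6 and 1.17, 1.06 and 1.13 times in shControl. TWIST1 counts were 5.10, 4.82 and 6.58 times those of TWIST2 in shTRIP6 and 2.88, 3.69 and 1.85 times in shControl. Each ratio, and the SNAI1 share, separated the groups, with an exact two-sided permutation p of 0.1 each (adjusted p = 0.1 over 3 comparisons). That is the smallest value 3 libraries against 3 can give, so the design cannot reach the threshold here.

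GRHL2 (chromosome 8, 101492432 to 101669726, plus strand) and OVOL1 (chromosome 11, 65787022 to 65797219, plus strand), both factors of epithelial cells, had 0 counts in all 6 libraries. CDH11 (chromosome 16, 64943753 to 65126112, minus strand), the cadherin of osteoblasts and many fibroblasts, had 0 counts in all 6 libraries too. A gene at 0 could stand at up to 0.0941 to 0.101 CPM in a library. Of all symbols, 7223 had no count in any library (25.8%), and these included EHMT2, a histone methyltransferase gene that most cells use, so a 0 in these tables need not mean that a gene is silent. EHMT2 was named after its values were seen.

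CDH2 lies on chromosome 18 from 27950966 to 28177446 (minus strand, protein-coding) and encodes N-cadherin, the main classical cadherin of neural and many mesenchymal cells. It stood at 46.1, 40.7 and 39.7 CPM in shTRIP6 and at 123.9, 116.4 and 108.9 CPM in shControl. Every shControl library was more than double every shTRIP6 library. CDH2 fell from 116 ± 7.51 to 42.2 ± 3.47 CPM (SD, n = 3), to 36.2% of its control mean (log2 fold change -1.46 ± 0.07, edgeR adjusted p = 8.11e-13). Its log2 fold change ranged from -1.53 to -1.41 over 14 alternatives, and 8.0% of tested genes had a lower one.

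With 1 CPM in all 3 libraries of a group as the limit, SNAI2, TWIST1, ZEB1, ZEB2 and CDH2 (5 of 10) were expressed in both groups, SNAI1 and TWIST2 in shControl only, and GRHL2, OVOL1 and CDH11 in neither. Between genes, levels were compared as CPM per kilobase of merged exons (GENCODE release 29). In shControl the order was SNAI2 (28.1 ± 2.69), CDH2 (23.5 ± 1.52), ZEB1 (7.68 ± 0.936), TWIST1 (3.53 ± 0.725), ZEB2 (2.36 ± 0.180), TWIST2 (1.40 ± 0.195) and SNAI1 (1.09 ± 0.131). The libraries of TWIST2 and SNAI1 overlapped, and those of the other neighbours did not. In shTRIP6 the order was the same, but CDH2 (8.52 ± 0.702) and ZEB1 (8.28 ± 0.823) overlapped there. The order between ZEB2 and TWIST1 depends on the length used, since the merged exons of ZEB2 span 25058 bases and its principal transcript 9541. With the principal transcript, an alternative added after the data were seen, ZEB2 stood above TWIST1 in both groups (6.20 ± 0.473 against 4.30 ± 0.884 CPM per kilobase in shControl), and ZEB1 stood above CDH2 in shTRIP6.

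The profiles nearest to TWIST2, the called member with the largest change among those averaging at least 1 CPM, were those of TMC7, TMOD1 and FAM160A1. On log2 of CPM plus 0.5, they differed from TWIST2 by a root mean square of 0.0619, 0.0724 and 0.0740 over the 6 libraries. Each gene was first centred on its mean, and 13912 other genes were compared. The added 0.5 shrinks the changes of low genes such as TWIST2. The fitted log2 fold changes of TMC7, TMOD1 and FAM160A1 were -1.26, -1.15 and -1.22, smaller falls than the -1.51 of TWIST2. The nearest to SNAI2, the member with the highest mean, were PKP4 (0.0203), EPB41L2 (0.0208) and LSM14A (0.0211).

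RNA of CDH1, the E-cadherin gene that SNAIL, ZEB and TWIST factors are known to repress, gave few counts in both groups. It had 1, 0 and 1 counts in shTRIP6 and 9, 9 and 7 counts in shControl, too few to be tested after the low-count filter. Without that filter it was called lower (log2 fold change -3.45 ± 1.27, edgeR adjusted p = 0.0200). The 2 counts against 25 put shTRIP6 at 7.72% of shControl, with a 95% exact binomial interval of 0.887% to 31.0%. EPCAM, an epithelial adhesion gene, had no count in any library, and the splicing factor gene ESRP1 had at most 7 counts in a library. ESRP2, its paralog, stood at 3.06 ± 0.429 CPM in shTRIP6 and 2.26 ± 0.524 CPM in shControl and did not pass the test (edgeR adjusted p = 0.126). VIM, the vimentin gene of mesenchymal cells, stood at 6270 ± 128 CPM in shTRIP6 and 4104 ± 154 CPM in shControl and rose (log2 fold change 0.61, edgeR adjusted p = 3.57e-11).

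**Figure D3:**
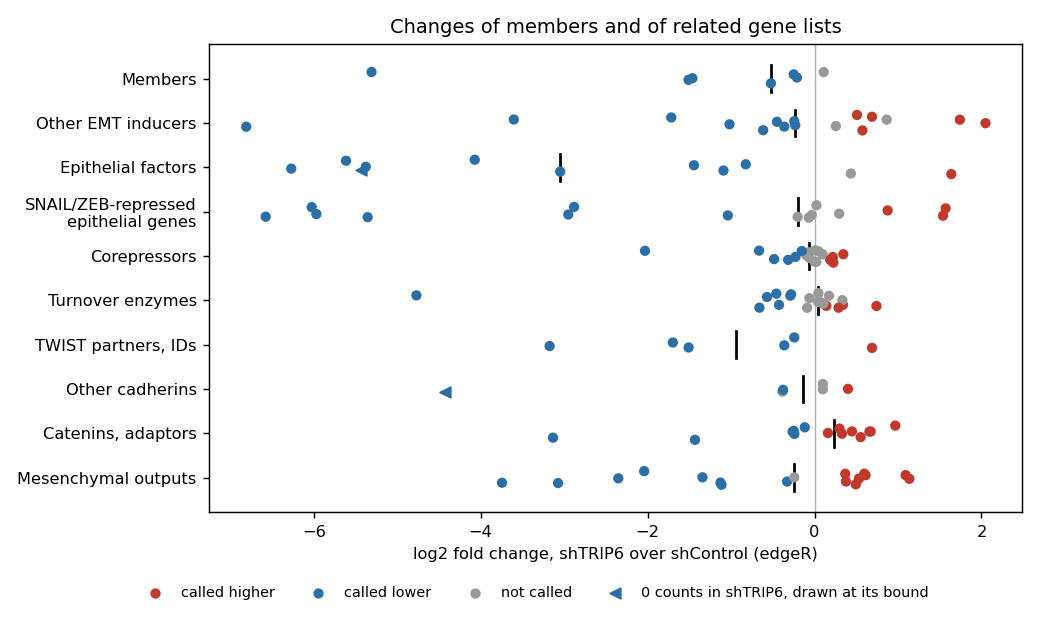
Log2 fold change of shTRIP6 over shControl (horizontal axis, edgeR) for each tested member (top row) and each tested gene of 9 related lists, coloured by call, with a black line at the median of each row. Triangles mark genes with 0 counts in shTRIP6, drawn at the bound that a floor of 3 counts over the group gives. The epithelial factors lie farthest to the left, with a median of -3.05, and the member farthest to the left is SNAI1.

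Genes around the members were read from lists drawn up by known role, with earlier results of these data known. The counts of each list stand beside 29.0% higher and 31.2% lower over all tested genes, so a mix of rises and falls is common. Among other factors that can drive the transition, 5 of 16 tested genes rose and 9 fell (median log2 fold change -0.24). FOXQ1, a forkhead factor, fell from 36.2 ± 1.22 CPM in shControl to 0.317 ± 0.160 CPM in shTRIP6, and SOX4 fell to 5.58 ± 1.48 against 67.8 ± 4.75 CPM. FOXC2 fell by 1.02 on the log2 scale. NFATC1 rose by 1.74, TCF4 by 0.69 and ETS1 by 0.57, and ETS1 reached 476 ± 9.54 against 320 ± 6.15 CPM. PRRX1, a homeobox factor of mesenchyme, had no count in any library. PRRX2, averaging under 1 CPM, had 3, 13 and 10 counts in shControl and 25, 38 and 48 in shTRIP6. It rose by 2.05 on the log2 scale (edgeR adjusted p = 0.00145), the largest rise of this list. PRRX1 and PRRX2 were named after their values were seen. The call of TCF4 was lost without shControl replicate 3 (edgeR adjusted p = 0.0603).

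Of 11 tested epithelial identity factors, 9 fell and 1 rose, with a median log2 fold change of -3.05. ELF3, an ETS factor of epithelia, fell from 61.8 ± 4.04 CPM in shControl to 0.799 ± 0.507 CPM in shTRIP6 (log2 fold change -6.27 ± 0.17, edgeR adjusted p = 3.42e-16). The related factor EHF stood at 0.255 ± 0.117 against 10.7 ± 1.49 CPM, and GATA6, a factor of endoderm, at 0.242 ± 0.215 against 12.1 ± 1.64 CPM. KLF5 and KLF4, Krüppel-like factors of gut epithelium, and GRHL1, the paralog of GRHL2, were named after their values were seen. KLF5 stood at 7.95 against 133.7 CPM, KLF4 at 2.47 against 20.5 CPM and GRHL1 at 2.06 against 3.65 CPM, and all 3 fell. TP63, also named after its values were seen, stood at 1.37 ± 0.354 CPM in shControl and had no count in shTRIP6. With 3 counts over the whole shTRIP6 group as its limit, TP63 was at least 43.1-fold lower. No factor of the list was called higher in DESeq2, with a filter of 1 CPM, or without shTRIP6 replicate 1, 2 or 3 or shControl replicate 3. The paralogs OVOL2 and OVOL3 had at most 9 counts in a library and were not tested.

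**Figure D4:**
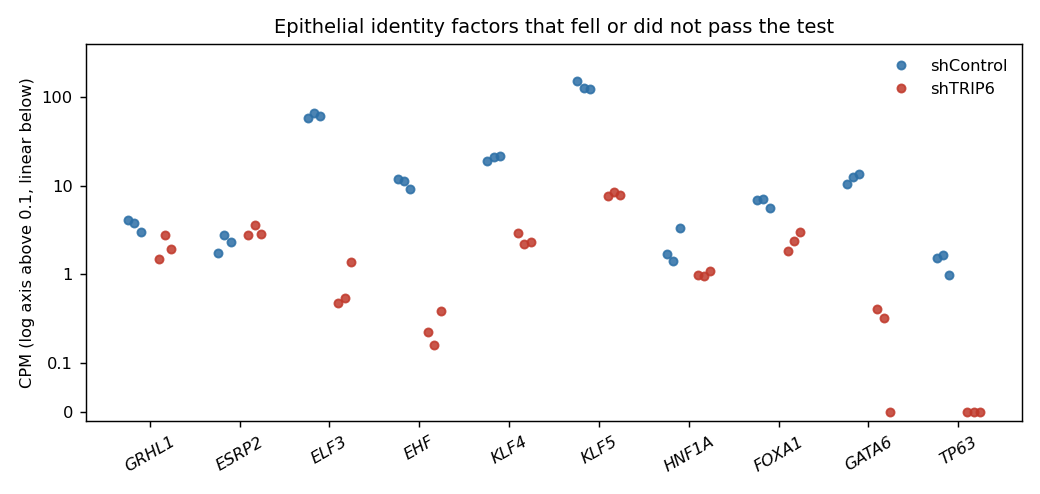
Level in CPM (vertical axis, logarithmic above 0.1 and linear below) of the 10 tested epithelial identity factors that fell or did not pass the test, in each of 3 shControl libraries (blue) and 3 shTRIP6 libraries (red). ELF3, EHF, GATA6 and KLF5 lie more than 10-fold lower in shTRIP6. TP63 lies at 0 in shTRIP6, at least 43.1-fold lower by the limit of 3 counts over the group, and ESRP2 did not pass the test.

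Of 15 tested epithelial genes that SNAIL and ZEB factors are known to repress, 3 rose, 7 fell and 5 did not pass (median -0.20). PPL, which encodes the desmosomal linker periplakin, fell from 106.8 ± 3.64 CPM in shControl to 1.12 ± 0.384 CPM in shTRIP6. LLGL2, a polarity gene, stood at 0.265 ± 0.130 against 17.5 ± 1.11 CPM, and MAL2, a gene of apical transport, at 0.288 ± 0.180 against 18.2 ± 0.709 CPM. OCLN, the tight junction gene occludin, rose by 1.57 and AP1M2, a sorting adaptor gene of epithelia, rose by 0.88 on the log2 scale. Of mesenchymal outputs, 8 of 17 tested rose and 8 fell (median -0.24). The receptor kinase gene AXL rose by 1.09, while the matrix genes TNC and COL3A1 and the protease gene MMP2, all under 5 CPM, fell (log2 fold changes -3.75, -3.07 and -2.35). Among abundant genes of the list, FN1, which encodes the matrix protein fibronectin, fell from 471.7 ± 22.03 to 186 ± 5.35 CPM (log2 fold change -1.34, edgeR adjusted p = 1.32e-14). The fibronectin receptor subunit gene ITGA5 fell from 391 ± 19.8 to 179 ± 6.48 CPM. FN1 and ITGA5 were named after their values were seen.

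TWIST proteins pair with E proteins, and ID proteins take up E proteins without binding DNA. Of these partner and inhibitor genes, 1 of 6 tested rose and 5 fell (median -0.94). The inhibitor gene ID3 fell most, from 115 ± 4.43 CPM in shControl to 12.7 ± 0.207 CPM in shTRIP6 (log2 fold change -3.17 ± 0.06, edgeR adjusted p = 2.93e-18). ID1 stood at 47.2 ± 3.08 against 134 ± 9.22 CPM and ID2 at 1.42 ± 0.480 against 4.63 ± 0.138 CPM, and both fell. The E protein gene TCF4 rose, as given above, while TCF3 and TCF12, named after their values were seen, fell (log2 fold changes -0.36 and -0.24).

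Of corepressors and chromatin partners of SNAIL and ZEB, 4 of 19 tested rose, 6 fell and 9 did not pass (median -0.06). CTBP1, the corepressor that ZEB proteins bind, rose by 0.34, and the LIM-domain genes LIMD1 and AJUBA rose by 0.23 and 0.22. SMARCA4, the chromatin remodelling ATPase gene, fell to 19.4 ± 0.350 CPM against 79.5 ± 6.19 CPM (log2 fold change -2.03 ± 0.07, edgeR adjusted p = 1.47e-14), NCOA3 fell by 0.66 and RCOR1 fell by 0.48. Of enzymes that set the turnover of SNAIL, TWIST and ZEB proteins, 4 of 19 tested rose and 7 fell (median 0.04). GSK3B, whose kinase marks SNAIL for degradation, fell by 0.66, and the kinase gene PAK1 fell by 0.57. PPARG, on this list and among the 7 falls, is a nuclear receptor gene and not a kinase, phosphatase or ubiquitin enzyme gene. It fell to 1.35 ± 0.433 against 37.2 ± 2.07 CPM. FBXL5, a ubiquitin ligase subunit gene, and the phosphatase gene CTDSP1 rose by 0.34 and 0.29. USP51, a deubiquitinase gene, rose by 0.74, and its call was lost without shTRIP6 replicate 1 (edgeR adjusted p = 0.116), shControl replicate 2 (0.0868) or shControl replicate 3 (0.0624).

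Of other cadherins, 6 of 18 had enough counts to be tested, of which 1 rose and 2 fell (median -0.14). CDH13, a cadherin anchored to the membrane by lipid, fell to 36.0 ± 1.23 against 46.7 ± 1.01 CPM, and CDH24 rose by 0.40 on the log2 scale. CDH3 (P-cadherin), named after its values were seen, had 17, 22 and 24 counts in shControl and none in shTRIP6, which by the same limit was at least 21.5-fold lower. Of the catenins, cadherin adaptors and enzymes that act on cadherins, 8 of 14 tested rose and 6 fell (median 0.23). JUP, which encodes the junctional catenin plakoglobin, fell to 16.2 ± 1.57 against 142 ± 2.95 CPM, and ADAM10, a protease that sheds N-cadherin, fell to 58.0 ± 2.80 against 157 ± 0.540 CPM. PKP4 fell by 0.26. ARVCF, AFDN and the glycosyltransferase gene MGAT5 rose by 0.97, 0.67 and 0.66.

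Markers of cell types were read beside these results. Of the colonic epithelium markers, VIL1, KRT20, EPCAM, GPA33, PHGR1 and FABP1 had no count in any library and CDX2 had at most 4, while KRT8 and KRT18, at 1719 and 885 CPM in shTRIP6 and 1804 and 871 CPM in shControl, did not pass the test. Defining markers of colon were thus at or near 0 and keratins of simple epithelia present. KRT19, another such keratin, was the one tested colonic marker of 3 that rose, at 50.6 against 13.8 CPM. These 3 keratins were named after their values were seen. Of 9 tested fibroblast markers, 2 rose and 5 fell (median log2 fold change -4.05). The summed level of the list was 165 to 186 CPM in shTRIP6, most of it from THY1, and 236 to 255 CPM in shControl. DCN and POSTN stood at 0 in shTRIP6. FBLN1 went down from 119.9 CPM in shControl to 7.25 CPM in shTRIP6, while FAP and MFAP5 had log2 fold changes of -5.49 and -4.54. FBLN1, FAP and MFAP5 were named after their values were seen. The 2 that rose were THY1, at 153 ± 10.5 against 89.3 ± 5.03 CPM, and PDGFRB, at 13.9 ± 1.18 against 6.88 ± 1.23 CPM, both named after their values were seen. Of 6 endothelial markers 1 was tested and fell, with sums of 0.345 to 0.450 and 2.28 to 2.57 CPM and PECAM1 at 0 in shTRIP6. Of 6 leukocyte markers 2 were tested and rose, with sums of 236 to 245 and 187 to 236 CPM, almost all from CD68, and PTPRC, which marks nucleated blood cells, had 0 counts in shTRIP6 and at most 8 in a shControl library. All 6 libraries came from the RKO cell line, so these are marker levels in cultures of 1 line. Whether any other cells were present was not tested.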

How the data were processed

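Raw read counts per gene symbol, as the authors deposited them, were read for 27980 symbols in 6 libraries. The counts were not normalized by the authors, as their whole numbers and unequal totals show. Per the submitters' processing notes, TopHat2, edgeR, limma and the build hg38 were used, without role, order or version. The sources used here do not give the counting tool, annotation or strand setting. The labels gave each library's group and number.

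Differences were fitted with edgeR 4.0.16 under R 4.3.3 (quasi-likelihood test after TMM scaling and filterByExpr, group as the only term), with Benjamini-Hochberg adjusted p under 0.05 called. The SE was the log2 fold change divided by the square root of F. CPM used library sizes scaled by TMM (factors 0.9925 to 1.007). Replicates differed beyond sampling noise in every pair (chi-square per degree of freedom 3.05 to 11.7 over genes with 20 counts or more). On simulated data, 50 of 15473 genes were changed at each size. After filtering, 15305 of the 15473 were fitted, and a changed gene left unfitted counted as not called. Called were 44% of 1.2-fold, 78% of 1.5-fold, 82% of 2-fold and 96% of 4-fold changes, and 10 calls (6.25%) were false. A far smaller share of genes was changed there than the 60.1% called in the real libraries, which makes the adjusted threshold stricter in the simulation. These rates therefore do not give the power of the real fit.

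Named were all members, TRIP6, CDH1, EPCAM, ESRP1, ESRP2 and VIM, up to 3 rises and 3 falls per list among called genes averaging at least 1 CPM, and 3 nearest profiles (log2 of CPM plus 0.5) for 2 members. Members and lists were chosen with earlier results of these data known, and lists were described by counts and medians without a set test. Coordinates and lengths came from GENCODE release 29 (GRCh38). Alternatives were RLE, upper-quartile and no scaling, 2 other filters, DESeq2 1.42.0, limma-voom (limma 3.58.1), a replicate block, leaving out each library, 2 other expression limits and, added after the data were seen, the principal transcript's length. Some genes of the lists are counted but not reported here by name.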

Additional observations from a re-analysis of the deposited data

How the results depend on the processing

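The falls of SNAI1, SNAI2, TWIST2 and CDH2 kept their direction and stayed past the threshold in all 14 alternatives of scaling, filter, tool, replicate block and left-out library. With upper-quartile scaling ZEB2 stood at -0.16 (adjusted p = 0.0566). Without 1 library at a time, log2 fold changes ranged from -0.68 to -0.41 for TWIST1, from 0.0394 to 0.21 for ZEB1 and from -0.24 to -0.14 for ZEB2, the members called higher from 0 to 1 and the members called lower from 5 to 6. Members expressed in shControl only were 2 at a limit of 1 CPM, 1 at 0.5 CPM and 1 at 2 CPM. Among epithelial identity factors 0 rose under a filter of 1 CPM in 3 libraries and 0 in DESeq2, and 0 to 1 without a library. Rises among turnover enzymes ranged from 2 to 4 and among TWIST partners from 0 to 1 without a library. Falls among other cadherins were 5 with no filter, 1 with a filter of 1 CPM in 3 libraries and 4 in DESeq2. Of 686 values of 49 other named genes, 682 kept direction and call, and 0 of all results reversed.

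Same-numbered libraries did not deviate together (correlations -0.0060, -0.0092 and -0.052), so no sign of pairing by replicate number was seen. With 3 libraries per group, this cannot show that the numbers pair nothing. With the replicate block, 4377 genes rose and 4702 fell against 4487 and 4820 without it, and 6 members fell and 0 rose, as without it. With at most 2 counts in a shTRIP6 library, as for SNAI1 and CDH1, the depth limits the size of the fall that can be stated.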
